A study of Mus musculus with 26 samples.

Results

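The glutathione and redox enzymes are 45 of the 37310 genes counted in each of 26 mouse RNA sequencing libraries. They were taken by symbol: 22 glutathione S-transferases (Gsta, Gstk, Gstm, Gsto, Gstp, Gstt and Gstz genes), 8 glutathione peroxidases (Gpx), 6 peroxiredoxins (Prdx) and 9 single genes, Gclc, Gclm, Gss, Gsr, Slc7a11, Srxn1, Txnrd1, Nqo1 and Hmox1. The rule uses symbols only, but it was chosen with earlier results of these data known. All libraries came from C57BL/6 mice that carry MMTV-PyMT, the polyoma middle T oncogene under a viral promoter active in mammary epithelium, so every group is tumor-bearing tissue or a culture made from it. The oligonucleotides are antisense (ASOs): chemically modified DNA that pairs with a target RNA and has it cut by RNase H, here Malat1, a nuclear long noncoding RNA. By its title, the series asks how Malat1 loss bears on differentiation and spread of mammary tumors. Organoids, fragments of such tumors grown in Matrigel with FGF2, had 4 libraries each of Malat1 ASO1, Malat1 ASO2, the control oligonucleotide scASO and Mock, for which the labels name no oligonucleotide. For ASO1, ASO2 and scASO cultures the stated dose was 500 nM over 6 days, with renewal after 3 days. For Mock no dose, duration or renewal is stated. Tumors had 3 libraries of ASO1, 4 of ASO2 and 3 of scASO, from mice given 125 mg/kg per week under the skin over several weeks. Age of the mice and any pooling of animals are not stated in these sources, and nothing says that libraries of a group came from separate animals or cultures, so p-values measure the spread between these libraries.

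Glutathione is a small thiol that cells make from cystine-derived cysteine, glutamate and glycine. Peroxidases use it to reduce hydrogen peroxide and lipid peroxides, S-transferases attach it to reactive compounds, and peroxiredoxins reduce peroxides with electrons passed on by thioredoxin. Many of these genes are known targets of NRF2 (gene Nfe2l2), a transcription factor that binds antioxidant response elements when electrophiles or oxidants release it from KEAP1. In tumors this system is known for protecting cells from oxidative damage and from ferroptosis, an iron-dependent death by lipid peroxidation.

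Reads assigned to genes numbered 23973533 to 65146030 per organoid library and 9939520 to 51363552 per tumor library. Levels are given as CPM, a gene's reads relative to the library's total, with totals scaled (TMM) over all 26 libraries. Malat1 had 818, 765 and 417 CPM in ASO1 tumors and 590, 917, 646 and 365 CPM in ASO2 tumors, against 1597, 1926 and 851 CPM in scASO tumors. In organoids it had 182, 113, 88.0 and 126 CPM with ASO1, 1463, 217, 96.9 and 311 CPM with ASO2, 819, 117, 792 and 1206 CPM with scASO and 758, 1550, 725 and 1337 CPM with Mock, in the order of the replicate numbers. Values of the libraries labelled organoid ASO2 replicate 1 and organoid scASO replicate 2 thus go against their labels, and the main counts that rest on them are given with and without them. The members' levels in the library labelled ASO2 replicate 1 were nearer to those of the ASO1 and Mock libraries numbered 2 in 34 of 40 members and nearer to those numbered 1 in 6. In the library labelled scASO replicate 2 they were nearer to number 1 in 27 and to number 2 in 13. The labels were kept as given. The luminal markers Krt8, Krt18, Krt19, Epcam and 6 more summed to 5111 to 9713 CPM in organoids and 3236 to 5512 CPM in tumors, so luminal epithelial RNA was read in every library.

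Per kilobase of exonic length, the most abundant member was Gpx1, the cytosolic glutathione peroxidase, with a mean level of 294 CPM per kb over all libraries. Prdx1, an abundant cytosolic peroxiredoxin, had 208 CPM per kb and Nqo1, a quinone reductase, 151 CPM per kb. Prdx5, found in mitochondria, peroxisomes and cytosol, had 81.9 CPM per kb, and Prdx2 59.7 CPM per kb. The leading transferases were Gsto1, which reduces arsenic compounds, with 63.2 CPM per kb, Gstm1 with 45.9 CPM per kb and Gstp1 with 30.6 CPM per kb. Hmox1, which degrades heme, had 62.5 CPM per kb, Gpx4, which reduces lipid peroxides in membranes, 43.9 CPM per kb, Gpx2, an epithelial form, 40.4 CPM per kb, and Txnrd1, the cytosolic thioredoxin reductase, 27.3 CPM per kb. At the other end, 4 members were scarcely read: Gpx5 had 2 reads in all libraries together, Gpx6 had 1, Gstm3 had 16 and Gstt4 had 46.

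The transferase genes stand in clusters on GRCm38: 7 Gstm genes at chr3:107895821-108044894, 4 Gstt genes at chr10:75774115-75837424, Gsta1, Gsta2 and Gsta4 at chr9:78182774-78355788, and 3 Gstp genes at chr19:4035407-4059569. Close copies within a cluster can share reads, and multiply aligned reads were left uncounted, so the levels of Gsta1, Gsta2, Gstp1, Gstp2, Gstp3 and the Gstm genes are uncertain. Exonic bases of 7 members (Gclm, Gss, Gstm5, Gstt3, Gstz1, Prdx2 and Prdx5) lie in another annotated gene as well, at most 19.1% of the length, in Prdx5. Enough reads for a test were present for 40 members in organoids, 37 in tumors and 41 in the fit of both. Members that failed the filter are not part of the counts below.

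**Figure D1:**
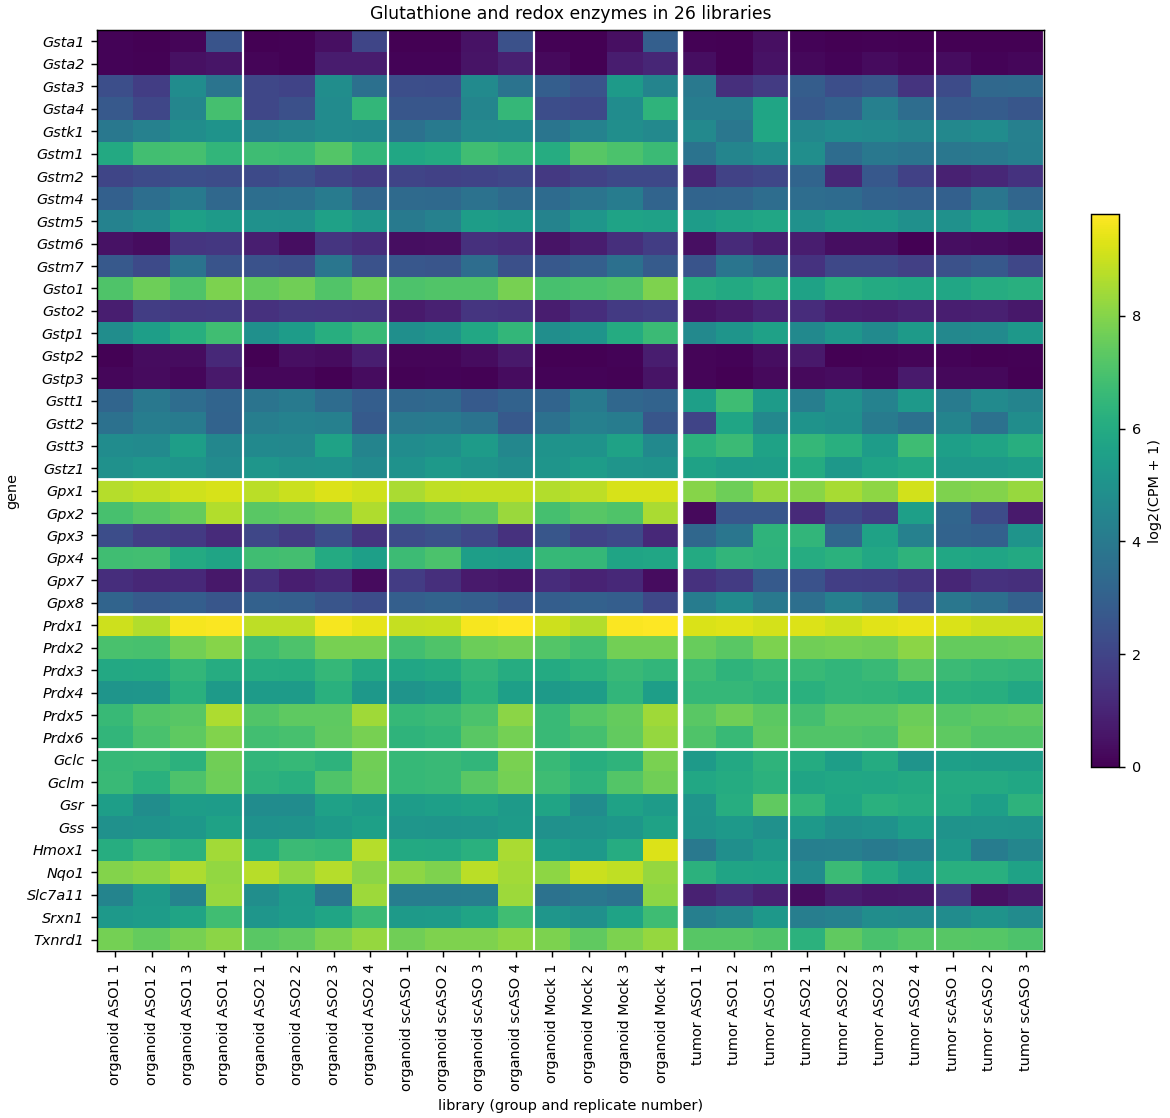
Heat map of log2(CPM + 1), by color, of the 41 tested members (rows, grouped as transferases, glutathione peroxidases, peroxiredoxins and single genes) in each of the 26 libraries (columns, organoid groups left of tumor groups, white lines between groups). Prdx1 and Gpx1 are bright in all libraries, Slc7a11 and Gpx2 are bright in organoids and dark in most tumors, and organoid libraries numbered 4 stand out in Slc7a11, Hmox1 and Gsta4.

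In tumors no member differed between Malat1 ASO and scASO tumors after adjustment. Of the 37 members tested, 0 were called for both ASOs together in edgeR's quasi-likelihood test (Benjamini-Hochberg adjusted p under 0.05), and among all 17354 genes 0.0% were called. The counts were also 0 with ASO1 alone, where 0.00576% of genes were called, and with ASO2 alone, where 0.0% were called. At an unadjusted p under 0.05 there were 6 members for both ASOs (16.2%, against 5.86% of all genes), 7 for ASO1 (18.9%, against 8.45%) and 1 for ASO2 (2.70%, against 5.14%). Estimates for both ASOs were above 0 in 29 of 37 members (78.4%, against 56.9% of all genes), with a median log2 fold change of 0.24, against 0.05 over all genes. The ASO1 and ASO2 comparisons share the scASO tumors.

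The smallest p-values belonged to a pair of transferases. Gsta4, which conjugates the lipid peroxidation product 4-hydroxynonenal, had 16.7, 16.6 and 52.8 CPM in ASO1 tumors and 5.74, 7.29, 18.4 and 10.3 CPM in ASO2 tumors, against 5.71, 6.23 and 5.13 CPM in scASO tumors. All 3 ASO1 tumors lay above all scASO tumors, and ASO2 tumors overlapped them. The log2 fold change was 1.62 ± 0.47 (SE) for both ASOs, with an adjusted p of 0.83 in edgeR, and 2.35 ± 0.53 for ASO1 alone, with an adjusted p of 0.53. Gstt1, a theta-class transferase, had 45.6, 106 and 41.2 CPM in ASO1 tumors and 17.2, 30.3, 19.4 and 37.1 CPM in ASO2 tumors, against 15.9, 24.8 and 20.4 CPM in scASO tumors. Again ASO1 tumors stood clear of scASO tumors and ASO2 tumors did not. Its log2 fold change was 1.04 ± 0.36 for both ASOs (adjusted p = 0.83) and 1.69 ± 0.41 for ASO1 (adjusted p = 0.53). The 8 endothelial markers summed to 82.9 to 139 CPM in ASO1 tumors, above the 61.1 to 64.6 CPM of scASO tumors. In ASO2 tumors they summed to 30.3 to 71.5 CPM. For ASO1, 7 of 8 had estimates above 0, with a median log2 fold change of 0.71, and none was called. For ASO2, 1 of 8 was above 0, with a median of -0.25. Of the 8 basal epithelial markers, 7 had estimates above 0 for ASO1 (median 1.63) and 1 for ASO2 (median -0.05), and none was called. For ASO1 the largest log2 fold changes were those of Oxtr, Myh11, Acta2, Cnn1 and Mylk, from 1.59 to 1.87. Krt14 was at 0.51, Trp63 at 0.08 and Krt5 at -0.19. The part of these cell types in the transferases' values was not tested. DESeq2 called both genes for ASO1, Gsta4 at an adjusted p of 0.00384 and Gstt1 at 0.0238, beside 0.64% of all genes.

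Among the peroxidases, Prdx4, a peroxiredoxin of the endoplasmic reticulum, had 91.0, 92.5 and 80.9 CPM in ASO1 tumors and 73.1, 87.4, 84.0 and 74.1 CPM in ASO2 tumors, against 73.7, 70.7 and 57.3 CPM in scASO tumors. Only the lowest ASO2 tumor lay within the scASO range, and the log2 fold change for both ASOs was 0.35 ± 0.13 (adjusted p = 0.83). Gpx4 averaged 76.0 ± 12.4 CPM in ASO1 tumors (SD, n = 3) and 70.3 ± 10.9 CPM in ASO2 tumors (n = 4), against 56.8 ± 3.77 CPM in scASO tumors (n = 3). Its log2 fold change for both ASOs was 0.40 ± 0.16 (adjusted p = 0.83). For ASO2 the smallest p belonged to Gstm2, a mu-class transferase, with 7.84, 1.13, 5.56 and 2.69 CPM in ASO2 tumors, against 0.852, 1.1 and 1.71 CPM in scASO tumors (log2 fold change 1.87 ± 0.66, adjusted p = 0.89). The remaining members that the naming rule picked for single oligonucleotides were Gstm7 for ASO1 (1.07 ± 0.42, adjusted p = 0.55) and Gstz1 (0.44 ± 0.20), Gpx7 (1.07 ± 0.50) and Prdx2 (0.37 ± 0.17) for ASO2, each of the last 3 at an adjusted p of 0.89. Gstz1 acts in tyrosine breakdown, Gpx7 is a peroxidase of the endoplasmic reticulum and Prdx2 an abundant cytosolic one.

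**Figure D2:**
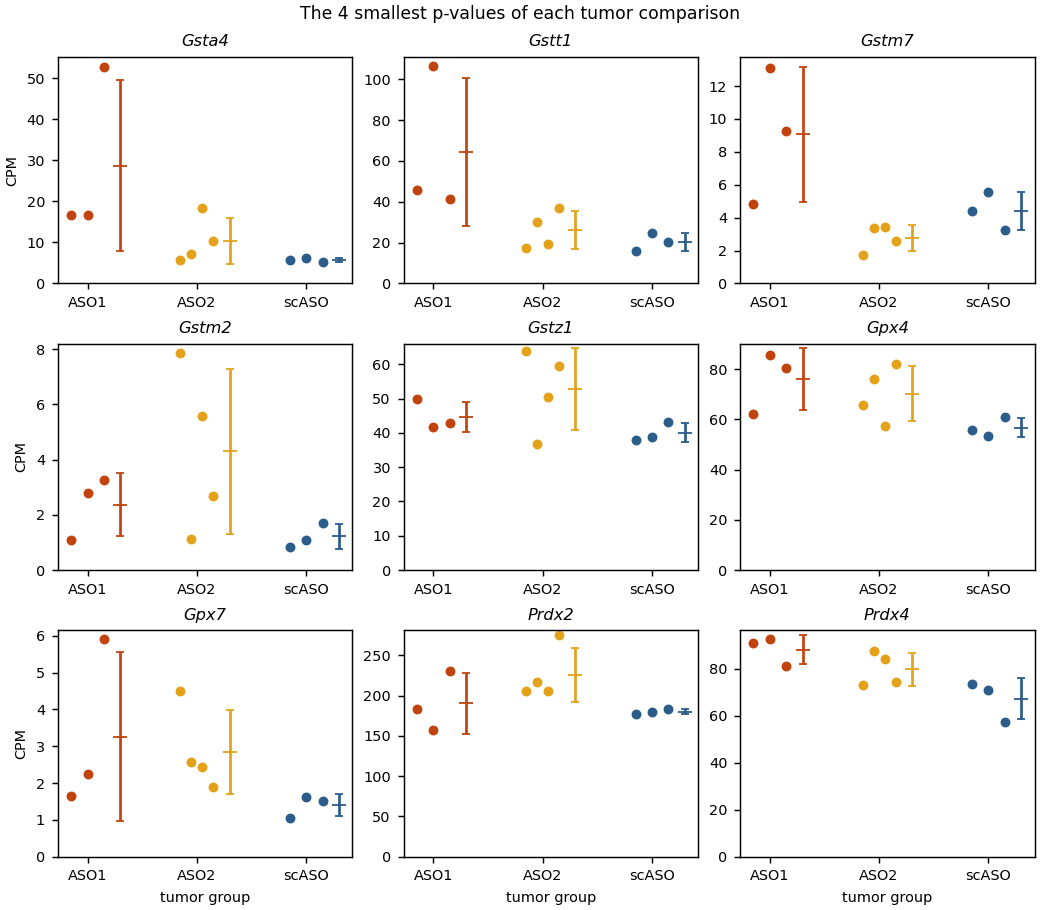
CPM (y axis, from 0) of the 9 members with the 4 smallest p-values of a tumor comparison, in ASO1, ASO2 and scASO tumors (x axis). Points are tumors, and the bar beside them is the mean with SD. ASO1 tumors lie above scASO tumors without overlap in Gsta4, Gstt1 and Prdx4 and, by a narrow gap, in Gpx4 and Gpx7. The ASO groups spread more widely than scASO in Gsta4, Gstt1, Gstm2 and Gpx7.

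Single tumors carried much of the spread. ASO1 tumor 3 had the highest level of 10 tumors in Gsta4 (52.8 CPM), Gsr, which regenerates reduced glutathione (171 CPM), and Gstk1, a mitochondrial transferase (56.3 CPM). In that tumor the 10 macrophage markers summed to 1064 CPM, against 401 to 742 CPM in the other tumors, and the 8 basal epithelial markers to 4256 CPM. Gpx3, the secreted glutathione peroxidase, had 8.72, 13.4 and 81.2 CPM in ASO1 tumors and 87.1, 8.36, 49.1 and 18.8 CPM in ASO2 tumors, against 7.62, 7.02 and 32.7 CPM in scASO tumors. Adipocyte markers summed to 1165 CPM and skeletal muscle markers to 2240 CPM in ASO2 tumor 1, and adipocyte markers to 30.4 to 1165 CPM over all ASO tumors, against 18.9 to 28.7 CPM in scASO tumors. None of the 10 adipocyte markers, all with estimates above 0 for both ASOs, was called. The part of other cell types in these values was not tested. In bulk tissue, fewer cells of a type and less RNA per cell cannot be told apart.

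In organoids no member was called for Malat1 ASOs against scASO. The count was 0 of 40 for both ASOs, ASO1 alone and ASO2 alone, with 0.0% of all 17126 genes called in each. In this fit, which leaves out the replicate numbers, no member reached an unadjusted p under 0.05 in these 3 comparisons, against 182, 44 and 287 of all genes for both ASOs, ASO1 and ASO2. Estimates for both ASOs were above 0 in 24 of 40 members, with a median log2 fold change of 0.07, against 0.01 over all genes. The smallest p for both ASOs belonged to Gstt1, at a log2 fold change of 0.43 ± 0.26, followed by Gstm1 at 0.35 ± 0.25, Gsto2 at 0.55 ± 0.39 and Gpx1 at 0.19 ± 0.14 (edgeR adjusted p = 1.00 for each). With ASO1 alone the first was Gstm2 at 0.30 ± 0.23, and with ASO2 alone Gstt1 at 0.51 ± 0.30 and Gsr at -0.32 ± 0.24 were among the first 4. DESeq2 called 0 members in each, and limma voom with quality weights called 2 for both ASOs (Gstm1 and Gsto2, beside 6.01% of genes) and 6 for ASO2 (beside 23.2% of genes). An edgeR fit with the number as a block and without the libraries that go against their labels ranked other members first for both ASOs. These were Prdx5 (0.25 ± 0.09), Gpx1 (0.22 ± 0.08), Nqo1 (-0.29 ± 0.12), Gpx4 (0.26 ± 0.11) and Prdx2 (0.18 ± 0.08). Their unadjusted p ran from 0.0146 to 0.0394 and their adjusted p from 0.46 to 0.53. Gstt1 was at 0.17 ± 0.15 and Gstm1 at 0.06 ± 0.10 there. With the replicate numbers left out of the model, the tumor response minus the organoid response was called in 0 of 41 members, with 0.0% of genes called. Gstm2 alone had an unadjusted p under 0.05 there, at a log2 difference of 1.17 ± 0.55, against 831 of 18695 genes. Without the libraries that go against their labels, 0 members were called (0.0% of genes) and 0 had an unadjusted p under 0.05, against 617 of 18632 genes, with Gstm2 at 1.23 ± 0.61.

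**Figure D3:**
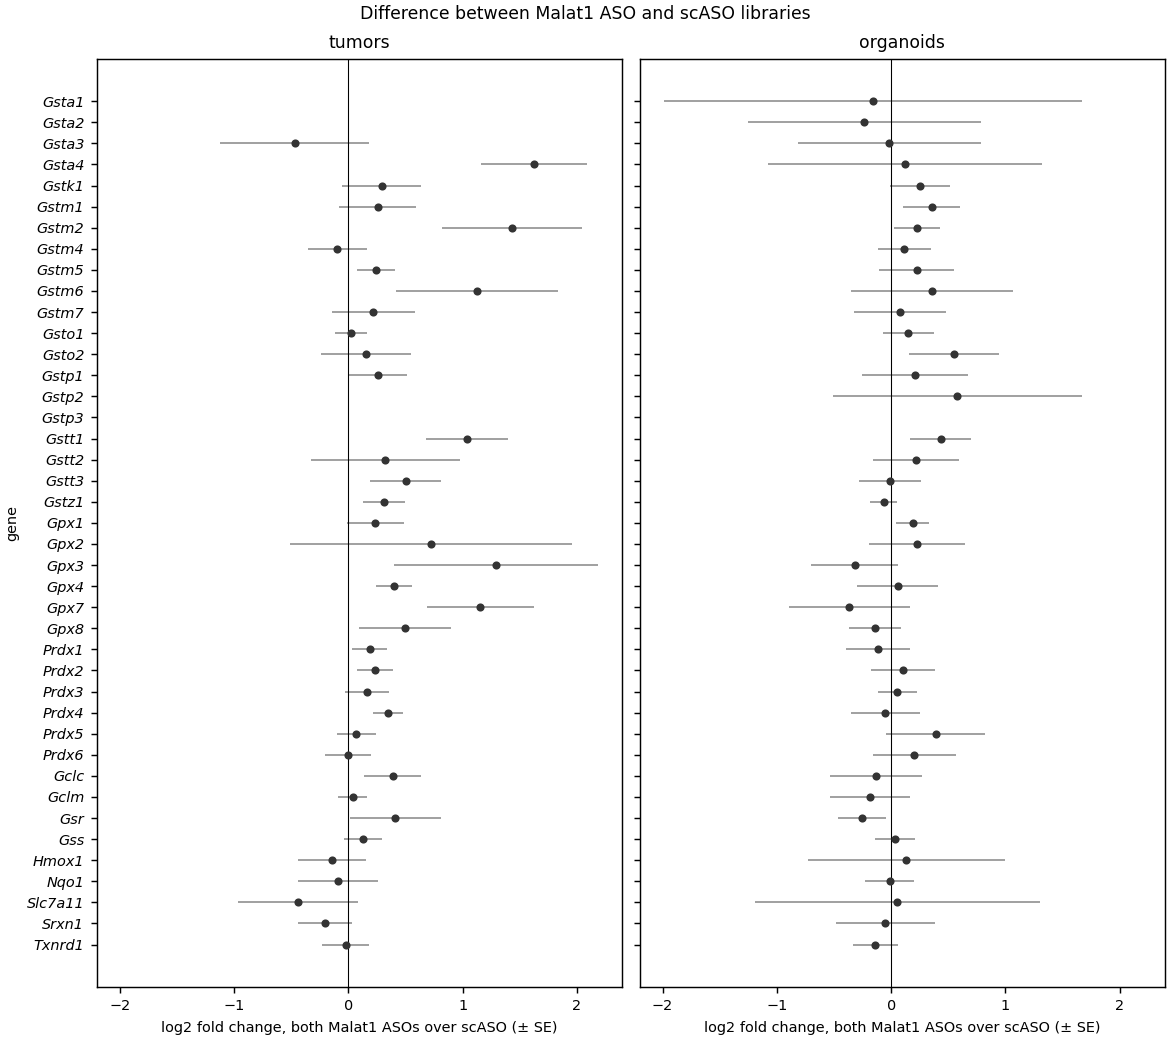
Log2 fold change (x axis) of both Malat1 ASOs over scASO for each tested member (rows), in tumors on the left and organoids on the right. Points are edgeR estimates and lines the standard error; no member was called in either, and 29 of 37 tumor estimates and 24 of 40 organoid estimates lie right of 0.

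Against Mock, Gsta3 was lower in Malat1 ASO organoids once replicate numbers were in the model. Without regard to the replicate numbers, 0 of 40 members were called for both ASOs against Mock (0.0% of genes) and 0 for scASO against Mock (0.0% of genes), with 0 members at an unadjusted p under 0.05 in either, against 468 and 272 of all genes. DESeq2 also called 0 members in both, beside 0.035% and 0.00584% of genes, and limma voom 0. Libraries that share a replicate number lay close together across treatments, and with the number as a block 1 of 40 members was called for both ASOs (2.50%, against 4.31% of genes) and 0 for scASO (0.747% of genes). That member was Gsta3, an alpha-class transferase also known for steroid isomerase activity. It had 4.05, 2.4, 26.3 and 12.6 CPM with ASO1, 3.28, 2.92, 27.3 and 11.4 CPM with ASO2 and 4.11, 4.02, 24.8 and 12.4 CPM with scASO, against 6.61, 4.67, 40.0 and 20.7 CPM with Mock, for numbers 1 to 4. Within each number, Mock was the highest of the 4 libraries. The blocked log2 fold change for both ASOs against Mock was -0.76 ± 0.11 (edgeR adjusted p = 0.00325), and that of scASO against Mock was -0.59 ± 0.13 (adjusted p = 0.0540). For both ASOs against scASO it was -0.17 ± 0.11 (adjusted p = 0.41).

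With the block and without the libraries that go against their labels, 6 of 40 members were called for both ASOs against Mock (15%, against 9.86% of genes). Gsta3 fell by 0.73 ± 0.08 on the log2 scale (adjusted p = 0.000553). Smaller decreases were called for Nqo1 (-0.36 ± 0.10, adjusted p = 0.0469), for Prdx3, the mitochondrial peroxiredoxin (-0.28 ± 0.07, adjusted p = 0.0237), for Gstz1 (-0.27 ± 0.06, adjusted p = 0.0222) and for Gstt3 (-0.25 ± 0.07, adjusted p = 0.0470). Slc7a11, the cystine importer, was higher by 0.65 ± 0.17 (adjusted p = 0.0311). It had 20.3, 39.5, 19.9 and 314 CPM with ASO1, 28.0, 40.4, 13.7 and 326 CPM with ASO2 and 16.9, 17, 17.5 and 330 CPM with scASO, against 11.9, 13.8, 12 and 283 CPM with Mock. Within each number, Mock was the lowest of the 4 libraries. In the same fit scASO against Mock had 1 called member (2.50%, against 1.78% of genes), Gsta3 at -0.73 ± 0.10 (adjusted p = 0.00521). The scASO estimates of the other 5 had the same signs, at -0.28 ± 0.09 for Prdx3, -0.27 ± 0.09 for Gstt3, 0.56 ± 0.20 for Slc7a11, -0.18 ± 0.08 for Gstz1 and -0.07 ± 0.13 for Nqo1, with adjusted p from 0.12 to 0.85. Against scASO there were 0 for both ASOs (0.0231% of genes), 0 for ASO1 (0.00577% of genes) and 0 for ASO2 (0.0173% of genes). Of the 54 other genes of the pathway, 3 were called for both ASOs against Mock, where 9.86% of all genes were. They were Abcc4 and Abcc3, export pumps of the ABC family, at 0.84 ± 0.22 and 0.39 ± 0.10, and Me1, an enzyme that makes NADPH, at -0.49 ± 0.11. The comparisons against Mock share the Mock libraries.

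Culture and tissue differed in a part of the members. Under scASO, 12 of 41 members differed between organoids and tumors (29.3%, against 23.5% of 18695 genes), 10 higher in organoids (11.4% of genes were) and 2 lower (12.1% of genes were). The share called exceeded the background by a small margin. Medium, dose, duration and any library batch differ along with culture and cannot be told apart from it.

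Of the genes of cystine import and glutathione synthesis, Slc7a11, Gclc and Gclm were higher in organoids. Slc7a11 had 16.9, 17, 17.5 and 330 CPM in scASO organoids, against 2.0, 0.342 and 0.583 CPM in scASO tumors, a log2 fold change of 6.59 ± 1.75 (edgeR adjusted p = 0.00965). All 16 organoid libraries, from 11.9 CPM upwards, exceeded all 10 tumors, and without the 4 libraries numbered 4 the log2 fold change was 4.14 ± 0.55 (adjusted p = 8.84e-05). Gclc, the catalytic subunit of the enzyme that limits glutathione synthesis, had 94.1, 99.1, 87.2 and 227 CPM in scASO organoids, against 45.3, 42.9 and 42.4 CPM in scASO tumors (log2 fold change 1.56 ± 0.45, adjusted p = 0.0155). Its modifier subunit Gclm averaged 140 ± 56.1 CPM in organoids (SD, n = 4) and 60.6 ± 3.71 CPM in tumors (n = 3), a log2 fold change of 1.22 ± 0.36 (adjusted p = 0.0178). In both genes the scASO groups did not overlap. Gss, the second enzyme of the synthesis, averaged 35.8 ± 3.12 CPM in organoids (SD, n = 4) and 31.9 ± 0.504 CPM in tumors (n = 3) and was not called, and neither was Gsr.

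Of the peroxide-reducing enzymes, Gpx2 differed most. It had 123, 145, 163 and 323 CPM in scASO organoids, against 8.25, 3.92 and 0.622 CPM in scASO tumors, a log2 fold change of 5.47 ± 1.22 (adjusted p = 0.00289). The lowest of all 16 organoid libraries had 120 CPM and the highest of all 10 tumors 45.9 CPM. Gpx1 was higher by 0.76 ± 0.23 (adjusted p = 0.0179). Gpx3 was lower in organoids, with 3.90, 4.38, 3.26 and 1.64 CPM, against 7.62, 7.02 and 32.7 CPM in scASO tumors (log2 fold change -2.23 ± 0.75, adjusted p = 0.0346). That value rests on scASO tumor 3: without it, the log2 fold change was -1.12 ± 0.77 and the adjusted p 0.34. None of the 6 peroxiredoxins was called in this fit. With the replicate number as a block, 3 of the 6 were called lower in organoids, in a fit that called 42.6% of all genes. They were Prdx3 at -0.68 ± 0.10 (adjusted p = 7.33e-05), Prdx4 at -0.52 ± 0.11 (adjusted p = 0.00139) and Prdx6 at -0.40 ± 0.15 (adjusted p = 0.0364). Such a fit takes differences between numbers out of the spread, so its p-values do not weigh them. It also blocks on tumor numbers, which do not pair the libraries. Without the libraries that go against their labels as well, the block fit called Prdx3, Prdx4 and Prdx2 (-0.37 ± 0.13, adjusted p = 0.0280), beside 40.5% of all genes. Prdx6 had an adjusted p of 0.0925 there.

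Among transferases, Gstm1 had 56.0, 62.5, 109 and 90.2 CPM in scASO organoids, against 13.9, 14.5 and 17.9 CPM in scASO tumors, a log2 fold change of 2.38 ± 0.36 and the smallest p of all members (adjusted p = 0.000128). Gsto1 was higher by 1.32 ± 0.24 (adjusted p = 0.000597). Gstm2 was higher by 1.29 ± 0.46 (adjusted p = 0.0473), with 2.98, 2.71, 2.91 and 3.23 CPM in scASO organoids and 0.852, 1.1 and 1.71 CPM in scASO tumors. That call was lost under 20 of 35 alternatives, with an adjusted p of 0.0808 without organoid number 4. Gstt1 was lower in organoids, with 8.74, 9.11, 5.91 and 7.43 CPM, against 15.9, 24.8 and 20.4 CPM in scASO tumors (log2 fold change -1.37 ± 0.37, adjusted p = 0.0107). Without scASO tumor 2 its adjusted p was 0.0553. Among the enzymes that handle quinones and thioredoxin, Nqo1 had 283, 238, 446 and 344 CPM in scASO organoids, against 71.6, 71.4 and 49.3 CPM in scASO tumors (log2 fold change 2.37 ± 0.36, adjusted p = 0.00013). Txnrd1 was higher by 0.77 ± 0.24 (adjusted p = 0.0242). Its call was lost without scASO tumor 1, 2 or 3 or without scASO organoid 4, at adjusted p from 0.0574 to 0.0927. Hmox1 (2.53 ± 0.96, adjusted p = 0.0576) and Srxn1, which repairs over-oxidized peroxiredoxins (1.14 ± 0.46, adjusted p = 0.0778), did not pass the threshold in this fit. Without organoid number 4, Hmox1 was called at a smaller log2 fold change of 1.4 ± 0.31 (adjusted p = 0.00347) and Srxn1 was not (0.69 ± 0.25, adjusted p = 0.0523). With the replicate number as a block both were called, Hmox1 at 2.01 ± 0.38 (adjusted p = 0.000554) and Srxn1 at 0.90 ± 0.16 (adjusted p = 0.000291). Those p-values also leave differences between numbers out of the spread.

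Across all treatments, 5 members had all 16 organoid libraries above all 10 tumors: Gpx2, Gstm1, Gsto1, Nqo1 and Slc7a11 (5.3% of all genes did). In Gpx3 and Gstt1 all organoid libraries lay below all tumors (5.63% of all genes did). Of the 54 other genes of the pathway, 16 were called higher (11.4% of all genes were) and 2 lower (12.1% of all genes were). The 54 include NRF2 and its partners, superoxide dismutases and catalase, thioredoxins and glutaredoxins, NADPH-making enzymes, microsomal transferases, export pumps, glutathione breakdown, cysteine supply, the glyoxalases, carbonyl, quinone and biliverdin reductases, ferritin and stress-induced proteins. The 4 smallest p-values among the higher genes belonged to Sesn2, Fth1, Nfe2l2 and Cth. Sesn2, a stress-induced protein that interacts with KEAP1, was higher by 1.33 ± 0.17, Fth1, the heavy chain of ferritin, by 2.52 ± 0.38, Nfe2l2 by 1.47 ± 0.23 and Cth, which makes cysteine from cystathionine, by 1.66 ± 0.27, each in scASO organoids. Both lower genes were Txnip, an inhibitor of thioredoxin, at -1.5 ± 0.36, and Osgin1, an oxidative stress-induced growth inhibitor, at -1.64 ± 0.42.

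**Figure D4:**
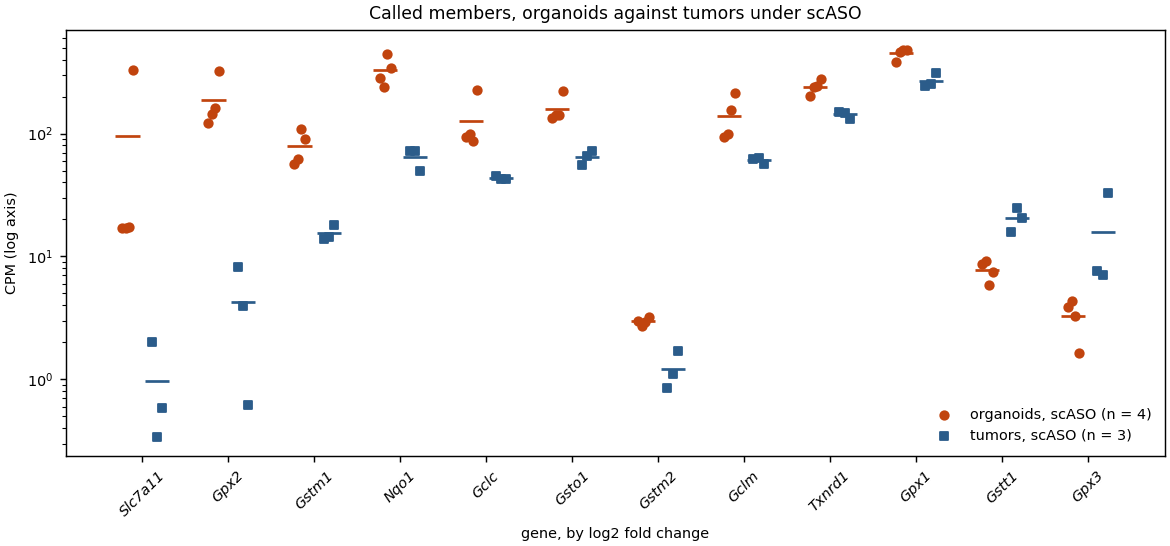
CPM (y axis, log scale) of the 12 members called between culture and tissue under scASO, in order of log2 fold change (x axis). Circles are organoid libraries, squares tumors and lines group means; in all 12 genes the circles and squares do not overlap, with Slc7a11 and Gpx2 farthest apart and Gstt1 and Gpx3 lower in organoids.

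Cell type markers differed as well. In scASO organoids the 8 endothelial markers summed to 6.26 to 29.5 CPM, against 61.1 to 64.6 CPM in scASO tumors, with 6 of 8 called lower. The 10 macrophage markers summed to 211 to 453 CPM in organoids and 497 to 628 CPM in tumors (6 of 10 called lower), and the 10 fibroblast markers to 208 to 595 CPM in organoids and 664 to 833 CPM in tumors (4 lower, 1 higher). All 5 erythroid markers tested were lower, and Hba-a1, Hba-a2, Hbb-bs and Hbb-bt had no read in any organoid library. Basal epithelial markers summed to 2085 to 5724 CPM in organoids and 377 to 1510 CPM in tumors (3 of 8 called higher). Those 3 were Krt14 (log2 fold change 4.19 ± 0.55), Krt5 (3.52 ± 0.78) and Trp63 (1.81 ± 0.52), while the other 5, among them Acta2 and Cnn1, had estimates below 0 and were not called, so the median of the list was -0.15. None of 10 luminal markers was called. The part of cell composition in the members' differences was not tested.

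With the replicate number as a block, 23 of 41 members were called between culture and tissue (56.1%, against 42.6% of genes), 16 higher and 7 lower, and limma voom called 24 (58.5%, against 58.2% of genes). The block fit leaves differences between numbers out of its spread, so its count does not weigh them. Without the libraries that go against their labels, 10 of 41 were called (24.4%, against 16.6% of genes), Gpx3 (adjusted p = 0.0625) and Gstm2 (adjusted p = 0.0795) no longer among them, and without organoid number 4, 11 of 40 (27.5%, against 25.0% of genes). The count also moved with single libraries: 5 were called without scASO tumor 2 (14.2% of genes), 6 without scASO tumor 3 (13.7% of genes), 7 without scASO organoid 4 (20.9% of genes) and 8 without scASO tumor 1 (17.2% of genes).

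Nearly all members differed between the replicate numbers of the organoids. With treatment in the model, 38 of 40 members differed between the 4 numbers (95.0%, against 81.0% of 17126 genes), and only Nqo1 (adjusted p = 0.12) and Gstm2 (adjusted p = 0.80) did not. Without the libraries that go against their labels, 39 of 40 differed (97.5%, against 88.4% of genes): Nqo1 was then called (adjusted p = 0.00129), and Gstm2 was not (adjusted p = 0.33). The labels do not say what a number stands for, and a source tumor, animal, day or batch cannot be told apart. Number 4 had the highest fitted level in 22 of 40 members (55.0%, against 31.2% of genes), number 3 in 11 (27.5%, against 27.9%), number 2 in 4 and number 1 in 3. Without the libraries that go against their labels, number 4 was again highest in 22 (29.7% of genes), number 3 in 10, number 2 in 5 and number 1 in 3.

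In 14 members all 4 libraries numbered 4 lay above the other 12 organoid libraries, which 12.6% of all genes did: Slc7a11, Gclc, Gclm and Gss of cystine import and glutathione synthesis, Gpx2, Prdx5, Prdx6, Srxn1, Txnrd1 and Hmox1, and the transferases Gsta1, Gsta4, Gstp1 and Gstp2. Slc7a11 had 314, 326, 330 and 283 CPM in number 4 (ASO1, ASO2, scASO and Mock), against 11.9 to 40.4 CPM in numbers 1 to 3. Hmox1 had 348, 424, 378 and 630 CPM in number 4, against 38.3 to 100 CPM in numbers 1 to 3. The gap appeared under each treatment, Mock included, in both genes.

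Gsta4 had 120, 88.0, 91.9 and 82.4 CPM in number 4, against 3.22 to 26 CPM in numbers 1 to 3, a range of fitted log2 levels over the numbers of 4.58 (edgeR adjusted p = 4.16e-10). Within the lower numbers it also varied, with 21.2 to 26 CPM in number 3 and 3.22 to 5.66 CPM in numbers 1 and 2. Gpx2 had 410, 396, 323 and 371 CPM in number 4, against 120 to 196 CPM in numbers 1 to 3. Gclc had 202, 205, 227 and 226 CPM in number 4, against 70.2 to 99.1 CPM, and Gclm 199, 198, 213 and 206 CPM, against 72.0 to 154 CPM. Srxn1 had 101 to 111 CPM in number 4, against 29.6 to 53.0 CPM. Prdx5 had 273 to 382 CPM, against 94.7 to 177 CPM, Prdx6, which also has phospholipase activity, 216 to 304 CPM, against 81.1 to 173 CPM, and Gstp1 89.3 to 109 CPM, against 27.1 to 69.6 CPM. Gsta1 had 3.18 to 6.90 CPM in number 4, against 0 to 0.397 CPM in the other 12 libraries. The opposite pattern, number 4 below the other 12 libraries, held in Gpx3, Gpx7 and Gstt2 (11.8% of genes). Without the libraries that go against their labels, the same 14 members (13% of genes) and the same 3 (12.3% of genes) met these conditions.

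Number 3 stood above the other 12 libraries in Gsta3, Gstm7, Gstt3 and Prdx4 (9.42% of genes), and in the same 4 without the libraries that go against their labels (9.79% of genes). Number 1 lay below all others in 2 members (0.66% of genes), Gpx1 and Gstp1, and without those libraries in 9 (7.49% of genes). Prdx4 had 73.0, 74.6, 75.2 and 86.0 CPM in number 3, against 32.7 to 45.5 CPM in the others, and Gsta3 24.8 to 40.0 CPM, against 2.4 to 20.7 CPM. Without number 4, 26 of 39 members differed between numbers 1 to 3 (66.7%, against 56.2% of genes). Slc7a11 (adjusted p = 0.070), Hmox1 (0.11), Txnrd1 (0.10) and Gclc (0.20) were then among those not called. Of the other pathway genes, 51 of 54 differed between the 4 numbers (81.0% of all genes did). Number 4 was highest in 24 of the 54 (31.2% of all genes). The smallest p among those belonged to Hpgds, which makes prostaglandin D with glutathione, Cbr3, a carbonyl reductase, Txn1, thioredoxin itself, and Taldo1, of the pentose phosphate pathway.

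Other measures moved with the numbers. Libraries numbered 4 had 27.7 to 32.7% of reads with several alignments, relative to reads assigned to genes, against 21.2 to 26.5% in numbers 1 to 3. Their basal epithelial markers summed to 4413 to 7968 CPM, against 1781 to 4644 CPM, and their luminal markers to 5111 to 5934 CPM, against 5270 to 9713 CPM. Sums of the adipocyte markers did not overlap, with 67.5 to 106 CPM in number 4, against 18.6 to 50.4 CPM in numbers 1 to 3. Adipoq and Lep had no read in number 4, and only 4 of the 10 adipocyte markers had enough reads for a test in organoids. Macrophage markers summed to 210 to 277 CPM in number 4 and 184 to 211 CPM in number 3, against 364 to 539 CPM in number 2 and 369 to 471 CPM in number 1. Number 3 had 130 to 208 CPM of fibroblast markers, and the other numbers 299 to 684 CPM. Their part in the members' differences was not tested.

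**Figure D5:**
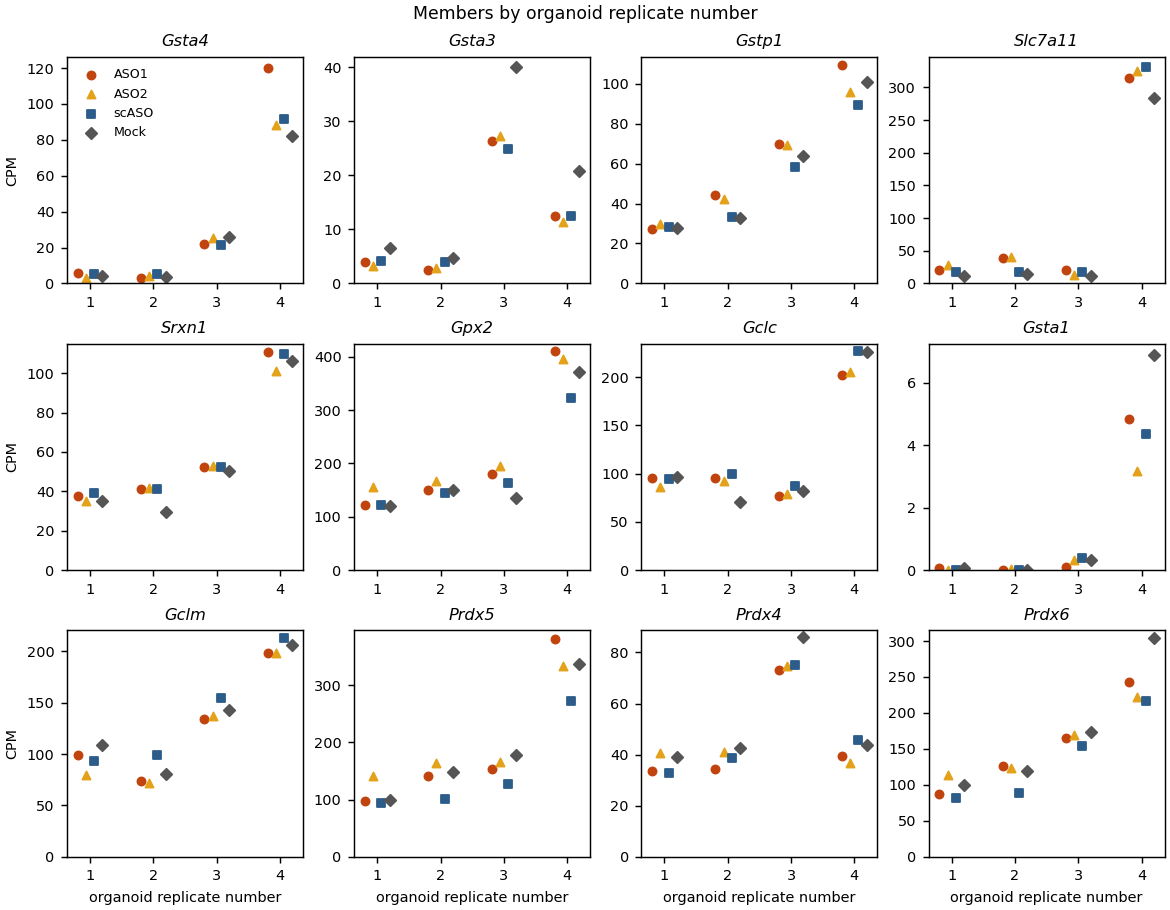
CPM (y axis, from 0) of the 12 members with the smallest p between organoid replicate numbers (x axis), with 1 point per library and a symbol per treatment. Points of a number lie together across treatments; number 4 is highest in 10 of the 12 panels, and number 3 in Gsta3 and Prdx4.

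Promoter windows of all members that had one were searched for the core of the antioxidant response element, TGACNNNGC, on both strands. Windows of 300 bases, 250 before and 50 after the start of transcription (RefSeq, GRCm38.p6), were given for 39 of 45 members, and 7 of these (Gclm, Gsta3, Gstm5, Gstm7, Prdx1, Srxn1 and Txnrd1) held the motif in a window. That is 17.9% of members, against 14% of 27025 genes. Of the 14 members with number 4 on top, 10 had a window and 3 held the motif, Gclm, Srxn1 and Txnrd1. Their windows are shown 5′ to 3′ on the strand of the gene, with the match in capitals, beside that of Slc7a11, whose fitted log2 level in number 4 lay 4.05 above the mean of the other numbers, and which has no match. They are Gclm at chr3:122245307-122245606 (+), Srxn1 at chr2:152105274-152105573 (+), Txnrd1 at chr10:82858956-82859255 (+, 1 of 3 windows of that gene) and Slc7a11 at chr3:50443564-50443863 (-).
Gclm: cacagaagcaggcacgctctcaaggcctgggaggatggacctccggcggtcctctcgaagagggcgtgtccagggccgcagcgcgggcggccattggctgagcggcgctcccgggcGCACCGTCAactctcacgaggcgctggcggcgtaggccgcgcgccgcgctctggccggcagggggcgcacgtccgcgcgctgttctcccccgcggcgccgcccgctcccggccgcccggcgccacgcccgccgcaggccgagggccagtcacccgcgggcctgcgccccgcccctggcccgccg
Srxn1: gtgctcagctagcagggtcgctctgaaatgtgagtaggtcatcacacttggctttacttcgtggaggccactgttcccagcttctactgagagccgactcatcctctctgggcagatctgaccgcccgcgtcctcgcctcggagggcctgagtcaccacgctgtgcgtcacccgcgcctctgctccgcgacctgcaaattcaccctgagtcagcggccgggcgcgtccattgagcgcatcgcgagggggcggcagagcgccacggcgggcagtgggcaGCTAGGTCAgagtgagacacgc
Txnrd1: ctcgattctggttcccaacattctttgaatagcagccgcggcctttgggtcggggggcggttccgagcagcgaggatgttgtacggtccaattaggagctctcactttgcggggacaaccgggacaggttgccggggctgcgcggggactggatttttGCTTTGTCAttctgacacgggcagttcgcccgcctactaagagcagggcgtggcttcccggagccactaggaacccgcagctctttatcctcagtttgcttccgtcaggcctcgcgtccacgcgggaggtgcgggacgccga
Slc7a11: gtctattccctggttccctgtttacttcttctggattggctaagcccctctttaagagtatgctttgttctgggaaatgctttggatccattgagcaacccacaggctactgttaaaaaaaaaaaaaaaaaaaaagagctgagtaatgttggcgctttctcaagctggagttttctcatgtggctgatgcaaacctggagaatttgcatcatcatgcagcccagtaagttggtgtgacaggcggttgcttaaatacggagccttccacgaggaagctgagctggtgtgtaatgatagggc
Each of the 3 matches is on the opposite strand, so the strand shown reads GCNNNGTCA. Their first base lies 134 bases before the start in Gclm, 92 before it in Txnrd1 and 28 after it in Srxn1. A match of these letters is a description of the sequence, and its absence says only that the letters are not in the window.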

How the data were processed

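Polyadenylated RNA was sequenced from TRIzol extracts with TruSeq chemistry, per the labels' protocols. The deposited tables hold raw read counts per gene as the authors made them. Per the submitters' processing notes, the build was mm9 and the tools were STAR, HTSeq, CASAVA, DESeq2 and FastQC. Their versions, roles and options, the annotation and the use of strand are not stated there. Each table has 37310 gene IDs and 5 lines for unassigned reads, which entered neither library sizes nor tests. Relative to reads assigned to genes, those lines held, in organoids and in tumors, 8.34 to 14.6% and 11.1 to 24.5% for no feature, 4.44 to 8.70% and 3.90 to 4.65% for ambiguous reads, and 21.2 to 32.7% and 24.1 to 44.0% for several alignments. The lines for low alignment quality and unaligned reads held 0. Symbols matched 32620 IDs, and 4690 had none. Lengths and gene positions are of GENCODE M21 on GRCm38.

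Members, lists and tests were chosen with earlier results of these data known. Groups and replicate numbers come from the titles. Counts were tested with edgeR 4.0.16 in R 4.3.3 (quasi-likelihood F-test, TMM, filterByExpr at a count of 10 and a total of 15), with organoids, tumors or all libraries in 1 fit, and p-values were adjusted by Benjamini-Hochberg over all genes tested, with a threshold of 0.05. Standard errors are the log2 fold change divided by the root of F. The fit was tested on simulated data. Alternatives were DESeq2 1.42.0 and its size factors, limma 3.58.1 voom with quality weights, no filter, compared groups only, the replicate block, and libraries left out. Organoid numbers pair the libraries: after group means were removed, same-numbered libraries correlated at 0.469 to 0.933 in 24 of 24 pairs above 0.1. In tumors 2 of 9 pairs did. No replicates were alike within sampling noise. Named for each comparison were called members, up to 12 per direction by p, and otherwise up to 4 with the smallest p. For levels, the 3 highest per kilobase in each family were named. Gsr, Gstk1, Gpx3 in tumors and members described by non-overlap of replicate numbers were chosen after their values were seen, as was leaving out organoid number 4.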

Additional observations from a re-analysis of the deposited data

Results flagged for a closer look

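Of 150 groups of 4 libraries over 30 named members, 31 values stood apart from the other 3 of their group by Dixon's ratio, where chance gives about 1 in 20 groups. That rate is no measure for these members, since 12 of the 30 were named for their differences between organoid numbers, and those 12 hold 20 of the 31 values. Organoid libraries numbered 4 held 21 of them, and ASO2 tumors, the only tumor group of 4 libraries, held 3.

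In number 4, Slc7a11 reached 314, 326, 330 and 283 CPM with ASO1, ASO2, scASO and Mock, Hmox1 348, 424, 378 and 630 CPM, and Gsta1 4.85, 3.18, 4.36 and 6.90 CPM. Gclc stood apart at 202, 205 and 227 CPM with ASO1, ASO2 and scASO. Gpx2 did so at 396 CPM with ASO2 and 371 CPM with Mock, Gsto1 at 220 CPM with scASO and 241 CPM with Mock, Gsta4 at 120 CPM with ASO1 and Prdx5 at 333 CPM with ASO2.

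In number 3, Prdx4 stood apart at 73.0, 74.6 and 86.0 CPM with ASO1, ASO2 and Mock, and Gstm7 at 13.4 CPM with ASO2. In number 2, Gstt1 had 15.6 CPM and Gstz1 41.7 CPM with Mock, each the highest of its group, and Gsr had 26.6 CPM with ASO1, the lowest of its group, against 41.9 to 43.5 CPM in the others. Of the tumors only the ASO2 group was checked, since the ASO1 and scASO groups have fewer than 4 libraries. The values that stood apart in it were all of ASO2 tumor 4, the library with 9939520 reads. Gpx2 had 45.9 CPM there against 1.28 to 3.34 CPM in the other ASO2 tumors. Prdx2 had 275 CPM against 205 to 217 CPM, and Prdx6 209 CPM against 133 to 141 CPM.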

How the results depend on the processing

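Counts of called members for Malat1 ASOs, for scASO against Mock and for the tumor minus organoid response were 0 to 0 with each library left out in turn, 5 to 14 between culture and tissue, and 37 to 39 between organoid numbers. DESeq2 called 2 for ASO1 in tumors. Limma voom called 2 for both ASOs and 6 for ASO2 against scASO in organoids, and 24 between culture and tissue. The replicate block gave 1 for both ASOs against Mock and 23 between culture and tissue, and with the libraries that go against their labels left out as well, 6 for both ASOs and 1 for scASO against Mock and 23 between culture and tissue. The block changed no other count by over 1.5 times; in tumors, where the numbers do not pair the libraries, it left the counts at 0. Gsr for ASO2 against scASO in organoids turned to 0.0268 (adjusted p = 0.94) under that last setting. The causes of these shifts were not tested. Of the named members' values under the alternatives, 1451 kept direction and side of the threshold, 45 fell below it and 10 passed it. Depth (9939520 reads in ASO2 tumor 4) limits members read near 1 CPM, such as Slc7a11 and Gstm2 in tumors, and p-values with 3 or 4 libraries per group miss small differences.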
